A study of Peromyscus californicus with 17 samples.

Results

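The genes described here encode 9 enzymes or enzyme subunits of the citric acid cycle, namely *Cs*, *Idh3a*, *Idh3b*, *Idh3g*, *Ogdh*, *Suclg1*, *Suclg2*, *Sucla2* and *Mdh2*. They were taken by symbol from a table of 27786 genes, and each symbol had 1 row. The list was chosen with earlier results of the same table known. One member, *Idh3b*, was selected on its deposited fold change between bond-disrupted and bonded lungs, so that contrast is given for *Idh3b* as a description with no test.

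RNA was sequenced from the lungs of 17 male California mice (*Peromyscus californicus*, a monogamous deer mouse), aged 12 to 15 months, with 1 library per animal. The 6 bonded males (B1 to B6) had lived with a female for 4 months. The 6 bond-disrupted males (BD1 to BD6) had been paired for the same time and were taken from the mating cage 7 days before the lungs were collected, while the 5 virgin males (V2 to V6) had been kept in groups, given as 3 to a cage in the labels and as 2 or 3 elsewhere. Animals with the same number in the different groups were siblings, except that 2 of the virgin males, V3 among them, were cousins of their counterparts.

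The citric acid cycle runs in the mitochondrial matrix, where it oxidizes acetyl groups to carbon dioxide and passes the electrons to the respiratory chain as NADH and as reduced flavin. Citrate synthase (*Cs*) brings acetyl groups in. The NAD-linked isocitrate dehydrogenase (*Idh3a*, *Idh3b*, *Idh3g*) and the 2-oxoglutarate dehydrogenase complex (*Ogdh*) carry out the decarboxylations, succinate-CoA ligase (*Suclg1* with *Suclg2* or *Sucla2*) makes GTP or ATP, and malate dehydrogenase 2 (*Mdh2*) restores the oxaloacetate with which citrate synthase reacts. Nearly every cell with mitochondria uses these enzymes, and heart muscle is especially rich in them.

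Expression was deposited as FPKM, the reads of a gene divided by its length and by the size of the library. In the deposited table the length did not belong to the gene. The value in the first column had been divided by the length of the gene 1 row above, the value in the second column by that of the gene 2 rows above, and so on through all 17 columns. The reads behind each value and the lengths were therefore solved from the table. RefSeq lengths of short RNA genes set the library totals, and RefSeq gene spans capped the lengths. The FPKM of each gene were then computed again with its own length. All 9 genes gave whole reads in all 17 animals, which the search for lengths favoured and which is no separate check. The reads ran from 1638 (*Idh3g* in B1) to 22260 (*Ogdh* in B3). Counting error was not computed.

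*Idh3b*, the beta subunit of the NAD-linked isocitrate dehydrogenase, was the member that the shifted lengths moved most between groups. Its own length was solved as 1522 bases, but the values of B1 to B5 had been divided by lengths of 72, 70, 86, 133 and 70 bases, which belong to short genes lying just above it in the table. The deposited FPKM in those animals were 1068, 1029.8, 974, 640.1 and 1307. The value of B6, divided by the 2478 bases of *Nop56*, was 32.8. In the bond-disrupted animals the deposited FPKM ran from 7.83 to 79.0 (median 24.2), after division by lengths of 1109 to 10386 bases. The virgin animals had 108.2, 31.4, 20.7, 15.5 and 31.6 FPKM in V2 to V6. As deposited, 5 of the 6 bonded animals thus lay above every other animal.

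With its own length, *Idh3b* had 47.4 to 60.1 FPKM in bonded animals (median 54.2) and 50.3 to 57.5 FPKM in bond-disrupted animals (median 52.1). The virgin values were 53.9, 52.3, 52.0, 54.7 and 56.5 FPKM in V2 to V6. The 3 groups overlapped, and the means were 53.7 ± 4.43 (SD, n = 6), 53.1 ± 3.06 (SD, n = 6) and 53.9 ± 1.82 (SD, n = 5). The log2 fold change of bond-disrupted against bonded animals was −4.61 as deposited and −0.02 (SE 0.06) with the own length. For virgin against bonded animals it was −4.07 as deposited and 0.01 (SE 0.06) with the own length. On the deposited values *Idh3b* alone of the members passed the limits used for calls below in both comparisons with bonded animals, where 0.215% and 0.607% of all genes did. In virgin against bond-disrupted animals 0 members and 0.188% of all genes did. Since *Idh3b* was selected on these values and both comparisons use the same bonded columns, these counts are a description and no test. Over the 17 animals the highest value was 167 times the lowest as deposited and 1.27 times the lowest with the own length.

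**Figure D1:**
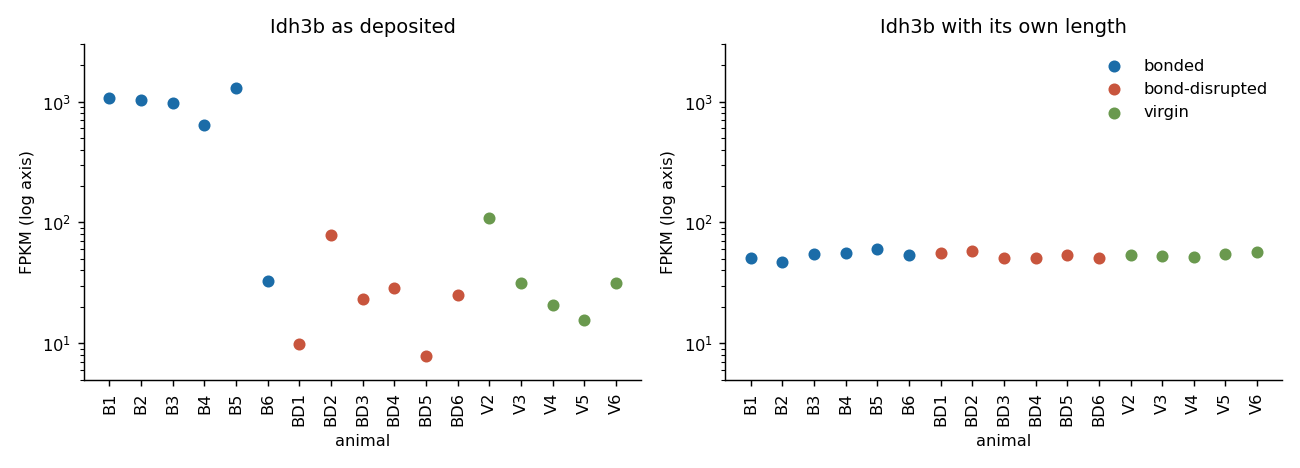
FPKM of Idh3b in each of the 17 animals (log axis), as deposited on the left and with its own length on the right, coloured by group. The deposited values of B1 to B5 stand between 640.1 and 1307 and all others below 110, while with the own length all 17 values lie between 47.4 and 60.1.

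The other members had been divided by equally mixed lengths. The longest length used for a gene was between 18.6 times (*Sucla2*) and 176 times (*Suclg2*) the shortest. The deposited *Cs* values of V2 and V3 were 2462 and 2255 FPKM because lengths of 72 and 76 bases had been used, and with the own length of 2944 bases they became 60.2 and 58.2 FPKM. The deposited *Mdh2* value of V3 was 1187 FPKM and became 93.7 FPKM. The values given from here on use the own length unless they are called deposited.

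The tissue label was checked against markers. *Sftpc*, which encodes surfactant protein C of type 2 alveolar cells, had 12001 to 27993 FPKM, and none of the 7 type 2 markers with solved values was at 0 throughout a group. Solved library totals ran from 30788496 (B4) to 68231985 reads (B3). Markers of cardiac muscle were also present: the summed FPKM of 10 markers was 57.0 to 616 in bonded, 105 to 341 in bond-disrupted and 139 to 463 in virgin animals. *Myl2*, a ventricular light chain gene, was at 0 in 11 of the 17 animals. BD6 stood apart in skeletal muscle markers, with a summed FPKM of 21.5 over 3 of them, nearly all from *Acta1*, while no other animal exceeded 1.30. Its sum of 5 endothelial markers, 515 FPKM, was the lowest of all animals. Of 3 brown fat markers the summed FPKM did not exceed 3.02, and *Ucp1*, the defining gene of that tissue, did not exceed 0.403 FPKM in any animal. In bulk RNA, fewer cells of a type and less RNA per cell cannot be told apart.

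FPKM is per length, so the members were ranked on it, with a single solved length per gene. An error in a length would shift that gene alike in all 17 animals, and was not tested. *Mdh2* was highest in all 17 animals, with a mean of 111 ± 12.6 (SD, n = 17). It was followed by *Ogdh* at 75.5 ± 4.84, *Suclg1* at 61.6 ± 7.20, *Cs* at 61.4 ± 5.30 and *Idh3b* at 53.5 ± 3.16. The lower end held *Suclg2* at 47.8 ± 4.97, *Sucla2* at 37.3 ± 3.30, *Idh3g* at 30.2 ± 1.90 and *Idh3a* at 25.0 ± 2.98. The summed level of the 9 genes was 465 to 556 FPKM in bonded, 485 to 534 FPKM in bond-disrupted and 459 to 519 FPKM in virgin animals, and these ranges overlapped.

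Each gene was compared with the next in that order by a two-sided paired permutation test over the 17 animals, adjusted over the 8 pairs. Across the animals the FPKM differed for 7 of the 8 pairs. Since it compares genes within animals, the test cannot detect an error in the length of a gene. *Mdh2* was 1.47-fold above *Ogdh* (higher in 17 of 17 animals, adjusted p = 5.3e-05), and *Suclg2* was 1.28-fold above *Sucla2* (17 of 17 animals, adjusted p = 5.3e-05). The smallest of these 7 steps, from *Idh3b* to *Suclg2*, was 1.12-fold (16 of 17 animals, adjusted p = 0.000503 in the permutation test). *Suclg1* and *Cs* were not separated: their mean ratio was 1.00, *Suclg1* was the higher in 8 of 17 animals, and the adjusted permutation p was 0.997.

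**Figure D2:**
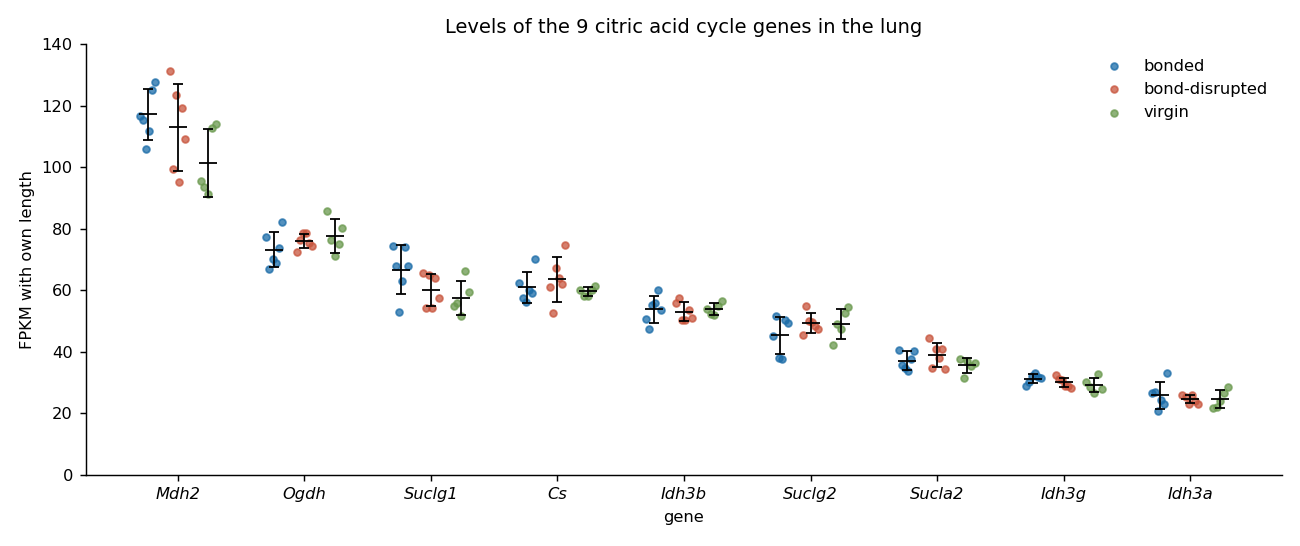
FPKM with own length of the 9 genes, ordered by their mean, with 1 point per animal, coloured by group, and black bars for the mean ± SD of each group (6 bonded, 6 bond-disrupted, 5 virgin). The genes step down from Mdh2 (91.3 to 131 FPKM) to Idh3a (20.6 to 33.2 FPKM), and the 3 groups overlap for every gene.

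The groups were compared with limma on log2(FPKM + 1), with all 3 groups in one fit of 15235 genes. Calls needed an adjusted p under 0.1 together with a 2-fold difference or more. None of the members was called in any comparison, and the share called among all genes tested was 0.0% in each. For bond-disrupted against bonded animals these counts are read for the other 8 members only, since *Idh3b* was selected on that contrast. Limma voom on the recovered reads also called 0 members, and among all 17532 genes it tested it called 1 (0.0057%) for bond-disrupted against bonded animals and 0.0% in the other comparisons. At an unadjusted p under 0.05, limma gave 0 of those 8 members for bond-disrupted against bonded animals, where 2.89% of all genes were higher and 3.09% lower. It gave 2 members for virgin against bonded animals, both lower, against 2.11% of all genes higher and 1.54% lower. It gave 0 for virgin against bond-disrupted animals, against 2.17% higher and 2.09% lower. Voom gave the same numbers of members (0, 2 and 0) at that limit, beside 6.38%, 3.52% and 4.46% of all genes in either direction.

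The median log2 fold change of the 9 members was −0.02 for bond-disrupted against bonded, −0.06 for virgin against bonded and −0.04 for virgin against bond-disrupted animals. Over all genes tested it was 0.01, 0.01 and 0.00. The largest difference of any member in the 3 comparisons was 1.10-fold, 1.16-fold and 1.11-fold.

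**Figure D3:**
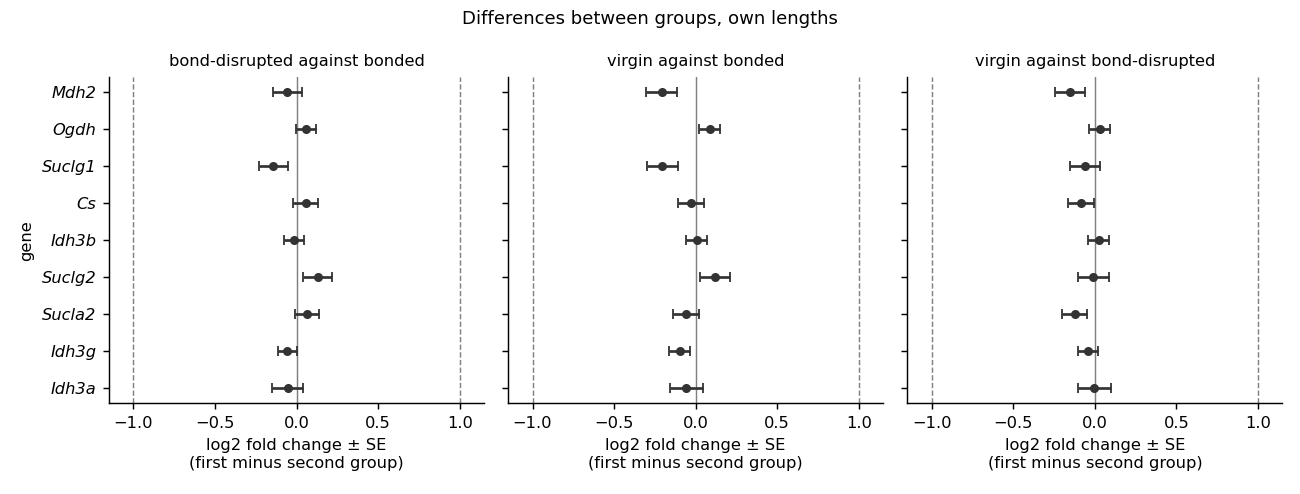
Log2 fold change of each gene with its standard error in the 3 comparisons, from limma on log2(FPKM + 1) with own lengths. The dashed lines mark a 2-fold change, and all 27 points lie between −0.21 and 0.13.

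The RNA of citrate synthase, the enzyme of the entry step, varied least among the virgin animals. *Cs* had 56.0 to 70.2 FPKM in bonded (median 59.6), 52.4 to 74.5 FPKM in bond-disrupted (median 62.9) and 58.0 to 61.4 FPKM in virgin animals (median 60.2). The bond-disrupted animals spanned the range of both other groups, with BD2 lowest and BD6 highest of all 17. BD6 was also the animal with the skeletal muscle transcripts and the lowest endothelial sum. *Cs* had an r of 0.60 with the skeletal muscle sum (adjusted permutation p = 0.212), which was 0.08 without BD6 and V6. With the endothelial sum its r was −0.62 (adjusted permutation p = 0.124), or −0.50 without BD6 and V4, while the Spearman rho was −0.22 (adjusted permutation p = 0.790). Neither correlation passed, and the part of these cells in the *Cs* level was not tested. Without BD6 its log2 fold change for bond-disrupted against bonded animals was 0.01. The log2 fold change was 0.06 (SE 0.08) for bond-disrupted against bonded and −0.03 (SE 0.08) for virgin against bonded animals, with adjusted p of 0.933 and 1.00 in limma.

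The alpha subunit of isocitrate dehydrogenase, which carries the catalytic site, was the least abundant member. *Idh3a* had 20.6 to 33.2 FPKM in bonded animals (median 25.4) and 23.1 to 26.0 FPKM in bond-disrupted animals (median 24.6). The virgin values were 21.8, 22.1, 24.0, 26.5 and 28.6 FPKM in V2 to V6. Both the lowest and the highest animal, B3 and B6, were bonded, and the 3 groups overlapped. The gamma subunit *Idh3g*, a regulatory subunit, had 29.0 to 33.1 FPKM in bonded, 28.3 to 32.4 FPKM in bond-disrupted and 26.5 to 32.8 FPKM in virgin animals. Its log2 fold change was −0.06 (SE 0.06, adjusted p = 0.902 in limma) for bond-disrupted against bonded and −0.10 (SE 0.06, adjusted p = 1.00) for virgin against bonded animals. *Idh3b* and *Idh3g* were among the steadier genes tested. Their SD within groups on the log2 scale was 0.09 and 0.08, and 4.47% and 3.42% of all genes tested had a smaller one. Of the 15235 genes tested, 8400 averaged 1000 reads or more, and no rank among those was computed.

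*Ogdh*, which encodes the decarboxylating subunit of the 2-oxoglutarate dehydrogenase complex, was as steady, with an SD of 0.09 and 4.63% of genes below it. Its FPKM was 66.8 to 82.3 in bonded (median 71.9), 72.5 to 78.6 in bond-disrupted (median 75.8) and 71.1 to 85.6 in virgin animals (median 76.3). The highest animal was V2 and the lowest B2, and the groups overlapped. The log2 fold change of virgin against bonded animals was 0.09 (SE 0.06, adjusted p = 1.00 in limma). The median SD over the 9 members was 0.12, beside 0.21 over all genes tested and 0.17 over the 8400 genes that averaged 1000 reads or more.

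The shared alpha subunit of succinate-CoA ligase had log2 fold changes on the other side of 0 from those of its GTP-linked partner in both comparisons with bonded animals. *Suclg1* had 52.9 to 74.3 FPKM in bonded animals (median 67.9) and 54.2 to 65.4 FPKM in bond-disrupted animals (median 60.7). The virgin values were 55.0, 55.7, 51.6, 66.1 and 59.3 FPKM in V2 to V6. Of the 6 bonded animals, 4 lay above every bond-disrupted and virgin animal, while B3 lay below all but 1 of the others. The log2 fold change of *Suclg1* was −0.14 (SE 0.09, adjusted p = 0.865 in limma) for bond-disrupted against bonded animals. For virgin against bonded animals, where its unadjusted p was under 0.05, it was −0.20 (SE 0.09, adjusted p = 1.00 in limma).

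The beta subunits that pair with it had log2 fold changes above 0 in the bond-disrupted animals against the bonded animals. *Suclg2*, of the GTP-forming ligase, had 37.8 to 51.5 FPKM in bonded animals (median 47.2) and 45.5 to 55.0 FPKM in bond-disrupted animals (median 49.0). In V2 to V6 it had 42.0, 48.9, 47.3, 52.7 and 54.5 FPKM. B3 and B4 were lowest, the groups overlapped, and the log2 fold change was 0.13 (SE 0.09, adjusted p = 0.868 in limma) for bond-disrupted against bonded animals. *Sucla2*, of the ATP-forming ligase, had 33.6 to 40.7 FPKM in bonded animals (median 36.7), 34.5 to 44.4 FPKM in bond-disrupted animals (median 39.4) and 31.4 to 37.7 FPKM in virgin animals (median 36.4). Its log2 fold change was 0.06 (SE 0.08, adjusted p = 0.918 in limma) for bond-disrupted against bonded animals.

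*Mdh2*, which closes the cycle, was the other member with an unadjusted p under 0.05. Its FPKM was 106 to 128 in bonded animals (median 116) and 95.3 to 131 in bond-disrupted animals (median 114). The virgin values were 95.4, 93.7, 91.3, 112.8 and 114.0 in V2 to V6. V2, V3 and V4 lay below all bonded animals, while V5 and V6 lay among them. The log2 fold change was −0.21 (SE 0.09, adjusted p = 1.00 in limma) for virgin against bonded animals and −0.06 (SE 0.09, adjusted p = 0.942) for bond-disrupted against bonded animals. When the shifted lengths were removed by least squares, the log2 fold change of *Mdh2* turned to 0.065 for virgin against bonded and to 0.044 for virgin against bond-disrupted animals.

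Ratios between members within an animal do not depend on the library total, and 6 of them were compared between the groups. Two-sided exact permutation tests were used on the log2 ratios, adjusted over 17 tests. One difference passed an adjusted p of 0.05. The ratio of *Suclg1* to the sum of its partners *Suclg2* and *Sucla2* was 0.729 to 0.880 in bonded animals (median 0.810) and 0.605 to 0.728 in bond-disrupted animals (median 0.709). The groups did not overlap, although the lowest bonded animal (B3) and the highest bond-disrupted animal (BD1) nearly met. The mean log2 ratio was lower by 0.25 in the bond-disrupted animals (exact permutation p = 0.00216, the smallest that 6 against 6 allows, adjusted p = 0.0368).

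In V2 to V6 the same ratio was 0.690, 0.694, 0.613, 0.752 and 0.652, so that V5 alone lay within the bonded range. The mean log2 ratio of virgin against bonded animals was also lower by 0.25 (exact permutation p = 0.00866, adjusted p = 0.0736), and that of virgin against bond-disrupted animals differed by 0.00 (exact permutation p = 1.00). When the lengths were instead removed by least squares, an alternative added for the ratios after seeing the data, the log2 difference of this ratio was −0.45 for bond-disrupted against bonded and −0.38 for virgin against bonded animals, each with an adjusted exact permutation p = 0.0491. The size of the difference, and the call for virgin against bonded animals, thus depended on that choice. The single ratios are given with no test. The ratio of *Suclg1* to *Suclg2* had medians of 1.43, 1.26 and 1.14 in bonded, bond-disrupted and virgin animals, and the ratio of *Suclg1* to *Sucla2* had medians of 1.85, 1.56 and 1.63. Each of these single ratios overlapped between bonded and bond-disrupted animals. Between bonded and virgin animals the ratio of *Suclg1* to *Sucla2* overlapped, while that of *Suclg1* to *Suclg2* did not, with 1.32 to 1.66 in bonded and 1.09 to 1.31 in virgin animals.

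The ligase ratio could not be tested to the same limit with pairs or with fewer animals. When animals with the same number were compared as pairs, it was again −0.25 with an adjusted p = 0.354 in the exact sign-flip test, in which 6 pairs cannot give a p below 0.0312. Without any 1 of the 12 animals the log2 difference stayed between −0.28 and −0.22, and the adjusted p was 0.0675 to 0.0736. The exact test of 6 against 5 gives no unadjusted p below 0.00433, which over 17 tests is 0.0736 for a single ratio, so the missed threshold in these settings says nothing about stability. Over the 17 animals, 13 marker lists and a respiratory chain list had Pearson r of −0.24 to 0.35 with this ratio, and the lowest adjusted permutation p was 0.758. With the group means removed, the r with this ratio ran from −0.48 for the ciliated markers to 0.66 for the type 2 alveolar markers, and was 0.58 for the type 1 alveolar and 0.52 for the erythroid markers. The summed FPKM of the 7 type 2 markers was 15836 to 27146 in bonded, 15999 to 34300 in bond-disrupted and 19106 to 31533 in virgin animals. For bond-disrupted against bonded animals, all 7 type 2 markers had a log2 fold change above 0 (0.01 to 0.43, median 0.17). All 7 ciliated markers were below 0 (−0.48 to −0.0039, median −0.21), and so were the 9 cardiac markers tested (−0.32 to −0.01, median −0.19). None of these markers was called, and their lowest adjusted p was 0.792 in limma. The part of these cell types in the ratio was not tested.

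**Figure D4:**
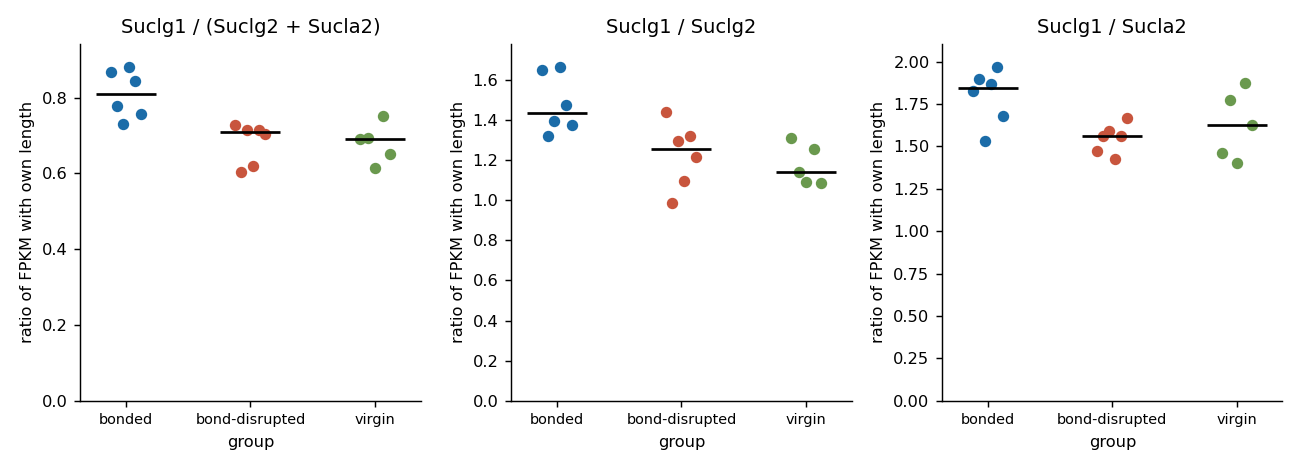
Ratio of the FPKM with own length of Suclg1 to the sum of Suclg2 and Sucla2 (left), to Suclg2 (middle) and to Sucla2 (right), with 1 point per animal and a line at the median of each group. On the left the bonded animals (0.729 to 0.880) lie just above the bond-disrupted animals (0.605 to 0.728), and in the other panels these groups overlap.

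The other 5 ratios passed in no comparison tested with the recovered lengths. *Suclg2* stood above *Sucla2* in every animal, by 1.02 to 1.58 times, and no comparison of this ratio passed (lowest exact permutation p = 0.117, adjusted p = 0.397). The ratio of *Ogdh* to *Cs* was 1.20 in bonded, 1.20 in bond-disrupted and 1.30 in virgin animals (geometric means), with an exact permutation p = 0.0346 and an adjusted p = 0.166 for virgin against bonded animals. The ratio of *Mdh2* to *Cs* was 1.92, 1.78 and 1.69 in the same order, with an exact permutation p = 0.0390 and an adjusted p = 0.166 for virgin against bonded animals. With the same least-squares removal of the lengths, the log2 difference of virgin against bonded animals was 0.28 for *Ogdh* to *Cs* (adjusted exact permutation p = 0.0491), and that of *Mdh2* to *Cs* turned to 0.22.

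Among the isocitrate dehydrogenase subunits, the ratio of *Idh3b* to *Idh3a* was 1.61 to 2.67 in bonded animals, 1.94 to 2.28 in bond-disrupted animals and 1.97 to 2.47 in virgin animals. The bonded animals held both extremes, B6 at the low and B3 at the high end. The ratio of *Idh3g* to *Idh3a* was 0.950 to 1.56 in bonded, 1.11 to 1.33 in bond-disrupted and 0.975 to 1.38 in virgin animals. For this ratio the exact permutation p was 0.989 for bond-disrupted against bonded animals.

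Across the 17 animals the members were weakly correlated with each other. Of their 36 pairs, 27 had a Pearson r above 0 on the log2 scale, and the median r was 0.19. Over 1160526 pairs among a regular subset of the genes tested the median r was 0.00, and all of these values share the library total. One pair passed an adjusted p of 0.05 over the 36. *Suclg1* and *Mdh2* had a Pearson r of 0.83 (adjusted permutation p = 0.00324) and a Spearman rho of 0.82 (adjusted permutation p = 0.00540). With the group means removed r was 0.80, and without B3 and V4, the animals farthest from the median of *Suclg1*, it was 0.81. The next pair, *Sucla2* and *Mdh2*, had an r of 0.60 (adjusted permutation p = 0.202), which was 0.39 without BD1 and V3.

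Members were also set against the summed levels of 13 marker lists and of 9 respiratory chain genes, which gave 126 correlations. *Idh3a* followed the cardiac muscle markers, with a Pearson r of 0.84 (adjusted permutation p = 0.00567) and a Spearman rho of 0.79 (adjusted permutation p = 0.0195). B3 had the lowest *Idh3a* (20.6 FPKM) and the lowest cardiac sum (57.0 FPKM), and B6 had the highest of both (33.2 and 616 FPKM). Without B3 and B6 the r was 0.71, and with the group means removed it was 0.85. All 10 cardiac markers had an r above 0 with *Idh3a*, from 0.38 (*Myl2*) to 0.85 (*Actc1*, cardiac actin).

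*Idh3a* also had an r of 0.73 with *Scgb1a1*, the secretoglobin of airway club cells and the 1 club marker used (adjusted permutation p = 0.0202, Spearman rho 0.70 with an adjusted permutation p = 0.101). That r was 0.63 without B3 and V6. Over the 9 members the r with the cardiac sum ran from 0.08 to 0.84, with a median of 0.21, and *Idh3a* was the 1 member that passed. What part heart muscle or airway RNA has in the *Idh3a* level was not tested. The bonded animals spanned the widest range of cardiac sums, and without B6 the log2 fold change of *Idh3a* for bond-disrupted against bonded animals was 0.02, on the other side of 0 from its value of −0.06 with all animals. Without B3, at the other end of the cardiac sums, it was −0.11.

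Of 17 respiratory chain genes listed, 9 were in the deposited table, all of complex I and ATP synthase. Listed genes of complexes III and IV and cytochrome c were missing. The ATP synthase genes averaged 102 to 226 FPKM and the complex I genes 29.4 to 123 FPKM, so the sum leaned on ATP synthase. *Mdh2* followed these 9 genes, with a Pearson r of 0.84 to their summed FPKM (adjusted permutation p = 0.00567). The Spearman rho was 0.82 (adjusted permutation p = 0.0139), the r without BD1 and V2 was 0.80, and with the group means removed it was 0.86. Of the 9 members, 8 had an r above 0 with that sum (median 0.38), and *Mdh2* was the 1 that passed.

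**Figure D5:**
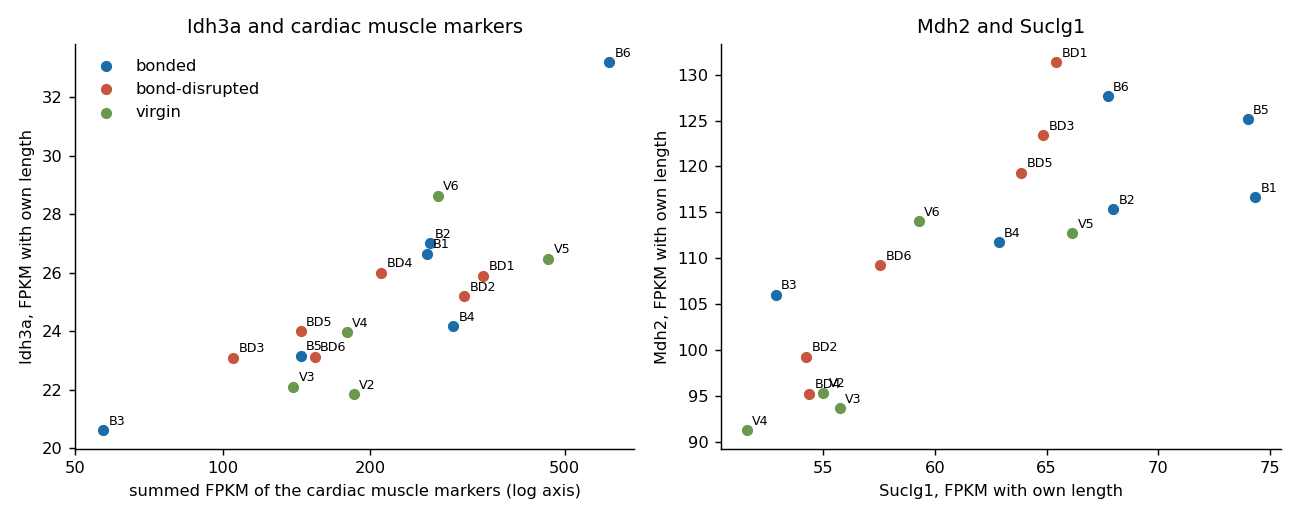
FPKM with own length in each of the 17 animals, coloured by group: Idh3a against the summed FPKM of 10 cardiac muscle markers (log axis, left), and Mdh2 against Suclg1 (right). On the left B3 lies lowest and B6 highest on both axes, and on the right V4 is lowest on both axes while the 3 groups lie along one band.

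The genes whose pattern was most like that of the members were found by their Pearson r with the mean of the 9 standardized members over the 17 animals, among 13492 other genes that averaged 100 reads or more. They were *Atp5f1b* (r = 0.92), which encodes the catalytic beta subunit of ATP synthase, *Tmem223* (0.86), the unnamed locus LOC128099828 (0.85), *Slc25a4* (0.84), which encodes an exchanger of ADP and ATP in the inner mitochondrial membrane, and *Ndufv1* (0.82), a core subunit of complex I. By the same mean, V4 was lowest, with 0 of the 9 members above their own mean over the animals, and B6 was highest, with 8 of 9.

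The rest of the pathway was not called either. The 56 other genes tested covered remaining cycle enzymes, NADP-linked and cytosolic relatives, pyruvate entry, anaplerosis and carriers. They also covered assembly factors and paralogs, regulators of mitochondrial genes, and the complex I and ATP synthase genes above. Limma called 0 of them in each comparison, and voom called 0. At an unadjusted p under 0.05 there were 0 for bond-disrupted against bonded, 3 for virgin against bonded and 1 for virgin against bond-disrupted animals, beside 5.98%, 3.66% and 4.27% of all genes tested, so these counts were no result about the pathway. The median log2 fold changes of the 56 genes were 0.02, −0.02 and −0.05.

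For bond-disrupted against bonded animals the 56 genes ranged from −0.18 on the log2 scale for *Ppargc1a*, a coactivator of mitochondrial genes (SE 0.10), to 0.29 for *Me2*, a mitochondrial malic enzyme (SE 0.16), both with an adjusted p of 0.855 in limma. For virgin against bonded animals *Pc*, pyruvate carboxylase, had 0.31 (SE 0.14), with 12.4 ± 2.71 FPKM (SD, n = 5) in virgin and 9.64 ± 1.14 FPKM (SD, n = 6) in bonded animals. *Mpc2*, a subunit of the mitochondrial pyruvate carrier, had −0.29 (SE 0.12), with 62.5 ± 4.58 and 76.7 ± 5.49 FPKM. Both passed the unadjusted limit and had an adjusted p of 1.00 in limma.

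For virgin against bond-disrupted animals the range ran from −0.25 for *Pdk4*, a kinase that inhibits pyruvate dehydrogenase (SE 0.27, adjusted p = 0.946 in limma), to 0.16 for *Slc25a10*, the dicarboxylate carrier (SE 0.13, adjusted p = 0.946). *Dld*, the dihydrolipoamide dehydrogenase shared with the pyruvate complex, was the 1 gene with an unadjusted p under 0.05 there and was named after its values were seen (−0.15, SE 0.06, adjusted p = 0.946 in limma). Among the 8 remaining cycle enzymes, which include aconitase, succinate dehydrogenase and fumarase, the medians were 0.07, −0.05 and −0.10 in the 3 comparisons.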

How the data were processed

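RNA from 17 lungs was sequenced from directional libraries, and the authors deposited FPKM per gene and animal. The submitters' processing notes name FastQC, Trim Galore 0.4.5, STAR 2.7.2, SAMtools 1.5, featureCounts and Subread 1.5.3. The genome build and annotation are not given in the sources used here. No column was left over.

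Library totals were set with the RefSeq lengths of short RNA genes. Gene lengths were then solved from the deposited FPKM as the values that give the most whole reads, with RefSeq gene spans as upper limits. Of 27787 lengths, 26558 were settled. Among short RNAs, 1555 of 1559 lengths equalled RefSeq, which is no separate check, since the totals rested on RefSeq lengths of such RNAs. No length of a member was compared with RefSeq. The settings of this step were chosen after seeing the data, and the members and gene lists were chosen with earlier results of these data known. Where lengths stayed unsettled, genes were left out.

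limma 3.58.1 in R 4.3.3 fitted the 3 groups on log2(FPKM + 1), with own lengths, for 15235 genes that reached 1 FPKM in some animal, with Benjamini-Hochberg adjustment within each comparison. Fold changes on that scale understate those of low genes. Correlations and level order used 100000 permutations in Python 3.11.15 with scipy 1.17.1.

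The study's family numbers link siblings or cousins. Deviations from group means correlated above 0.1 in 7 of the 16 same-numbered pairs (r from −0.34 to 0.41). Each library came from its own animal. All 9 members are named. Of the other pathway genes, those with the highest and lowest log2 fold change in a comparison are named, together with *Dld* (chosen after its values were seen), marker genes beside a result and the 5 genes most like the members. Alternatives were other pseudocounts, filters, scalings, limits and models, the family block, deposited values, a least-squares correction, and leaving out each animal. The values of 1 pathway gene are not reported here.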

Additional observations from a re-analysis of the deposited data

How the results depend on the processing

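On corrected values, 13 alternatives with all animals and 17 fits without 1 animal called 0 members in all 3 comparisons, and 0 genes of the pathway lists. Of the 810 member log2 fold changes that these gave, 27 lay on the other side of 0 and the lowest adjusted p was 0.656. A direction was counted as turned only where the value exceeded its standard error or the alternative called it. With the least-squares correction *Mdh2* turned to 0.065 for virgin against bonded and 0.044 for virgin against bond-disrupted animals. That correction, added for the ratios after seeing the data, gave −0.38 for the ligase ratio and 0.28 for *Ogdh* to *Cs* in virgin against bonded animals, both past an adjusted exact permutation p of 0.05 (0.0491), −0.45 (0.0491) for the ligase ratio in bond-disrupted against bonded animals, and turned *Mdh2* to *Cs* to 0.22 for virgin against bonded animals. The cause was not tested. Recovered reads in place of FPKM gave −0.25 for the ligase ratio (adjusted p = 0.0368).

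On the deposited values, by which it was selected, *Idh3b* was the 1 member past the limits in each comparison with bonded animals, where 0.215% and 0.607% of 18602 genes were. This is no test, and there were 0 for virgin against bond-disrupted animals. Their member medians were −0.97, −0.66 and 0.38. They turned *Suclg2* to −2.40 for bond-disrupted against bonded animals, *Idh3b* to −4.07, *Ogdh* to −0.027, *Suclg2* to −1.06 and *Mdh2* to 0.033 for virgin against bonded animals, and *Cs* to 2.79, *Sucla2* to 0.38 and *Mdh2* to 0.73 for virgin against bond-disrupted animals. Ratios turned to 1.02 (ligase) and 0.081 (*Mdh2* to *Cs*) for bond-disrupted against bonded, to −0.41 (*Suclg2* to *Sucla2*), 0.15 (ligase) and −2.04 (*Ogdh* to *Cs*) for virgin against bonded, and to −3.75 (*Ogdh* to *Cs*) for virgin against bond-disrupted animals. These values carry other genes' lengths by construction.

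With the replicate block (family numbers as pairs) the ligase ratio of bond-disrupted against bonded animals was −0.25 (adjusted p = 0.354, in a design too small to pass), and no other call changed. Leaving out 1 animal gave −0.28 to −0.22. RefSeq transcript lengths were not run for the level order, since the table used here gives gene spans only. The order by median was the same as by mean. The shallowest member value rested on 1638 reads.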
